A study of Mus musculus with 16 samples.

Results

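Glycogen is the branched glucose polymer in which the liver stores carbohydrate after meals and from which it releases glucose between them. Its synthesis starts on the self-glucosylating primer glycogenin (Gyg), uses UDP-glucose made by UDP-glucose pyrophosphorylase (Ugp2), and proceeds by chain elongation by liver glycogen synthase (Gys2) and branching by the branching enzyme (Gbe1). Breakdown is carried out by liver glycogen phosphorylase (Pygl), which is switched on by phosphorylase kinase, whose liver alpha subunit is encoded by Phka2, while the glycogen-targeting subunits Ppp1r3b and Ppp1r3c bring protein phosphatase 1 to glycogen, where it favours synthesis over breakdown. These 8 genes were described here out of 18820 genes measured by single-symbol probe sets. They were chosen by function, with earlier results of these data known. Each gene was read by the probe set with the highest mean over the 16 arrays, and all 8 had exactly 1 such probe set.

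The livers came from male mice aged 14 to 16 weeks, kept one to a cage on standard chow, and their RNA was read on whole-transcript arrays. The 4 groups of 4 arrays were fasted vanin-1 knockout mice, fasted wild type C57Bl/6J mice, fed knockout mice and fed wild type mice. Fasting lasted 24 h from lights off at 09:00, and the fed mice ate normally for 24 h. Vnn1 encodes vanin-1, a pantetheinase that recycles vitamin B5 from pantetheine. The labels give the knockout background as C57Bl/6J and do not describe how the allele was made. Values are log2 intensities normalised by RMA, so a difference of 1 is a doubling, and arrays are named by group and replicate number. Nothing in the labels states that the arrays of a group come from separate animals, so a p-value reflects only how these samples spread, and the number of arrays limits the precision.

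Vnn1 was low in both knockout groups, averaging 3.98 ± 0.30 in fasted and 3.89 ± 0.12 in fed knockout livers, against 10.81 ± 0.69 in fasted and 8.91 ± 1.61 in fed wild type livers (SD, n = 4 each). The 6 measured hepatocyte markers of a list of 7 gave a log2 summed level of 15.58 to 15.74 in fasted knockout, 15.68 to 15.79 in fasted wild type, 15.62 to 15.73 in fed knockout and 15.6 to 15.72 in fed wild type livers. A pair of arrays stood apart for other genes. Ctrb1, a digestive enzyme of the pancreas, read 10.12 on fasted WT 4 and 3.71 to 4.44 on the other 15 arrays. The acute phase gene Saa2 read 13.34 on fed KO 4 and 6.14 to 12.06 on the other 15 arrays. Fed KO 1 held that 12.06, so Saa2 was high on more than 1 fed knockout array, and fed WT 2 read 10.94. Lcn2, of the same acute phase list, read 12.30 on fed KO 4 and 6.04 to 9.47 on the other 15 arrays. Test results of single glycogen genes below that change when both arrays are left out are given with and without them. Shares of all genes and counts of cell type markers come from the fit of all 16 arrays. The array names carry plate positions in which each group fills plate rows of its own, so plate row and group cannot be told apart.

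Within each genotype, the members that passed the test in fasting encode enzymes of synthesis or breakdown, but Gyg, which primes synthesis, did not pass. A difference between enzymes and regulators was not tested. In knockout livers 4 of the 8 genes passed the test in fasted against fed mice, where 9.42% of all genes did (limma, Benjamini-Hochberg over all genes, called below 0.05). Since earlier results were known when the 8 genes were chosen, shares of all genes beside their counts are description only. Pygl, Ugp2 and Gbe1 fell, where 4.89% of all genes fell, and Gys2 rose, where 4.53% rose. The arrays of fasted and fed mice did not overlap for 4 of the 8 genes in knockout livers, against 17% of all genes, and for 1 of the 8 in wild type livers, against 12.4%. In wild type livers 1 of the 8 passed, Pygl, which fell, where 7.61% of all genes passed and 4.27% fell. The number of genes that fell in wild type livers depended on scaling, since 629 genes rose and 803 fell, but centring each array on its median gave 1014 and 542. The median log2 difference of the 8 genes was -0.51 in knockout livers (0.02 over all genes) and -0.35 in wild type livers (0.01 over all genes). In bulk liver, fewer cells of a type and less RNA per cell cannot be told apart.

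**Figure D1:**
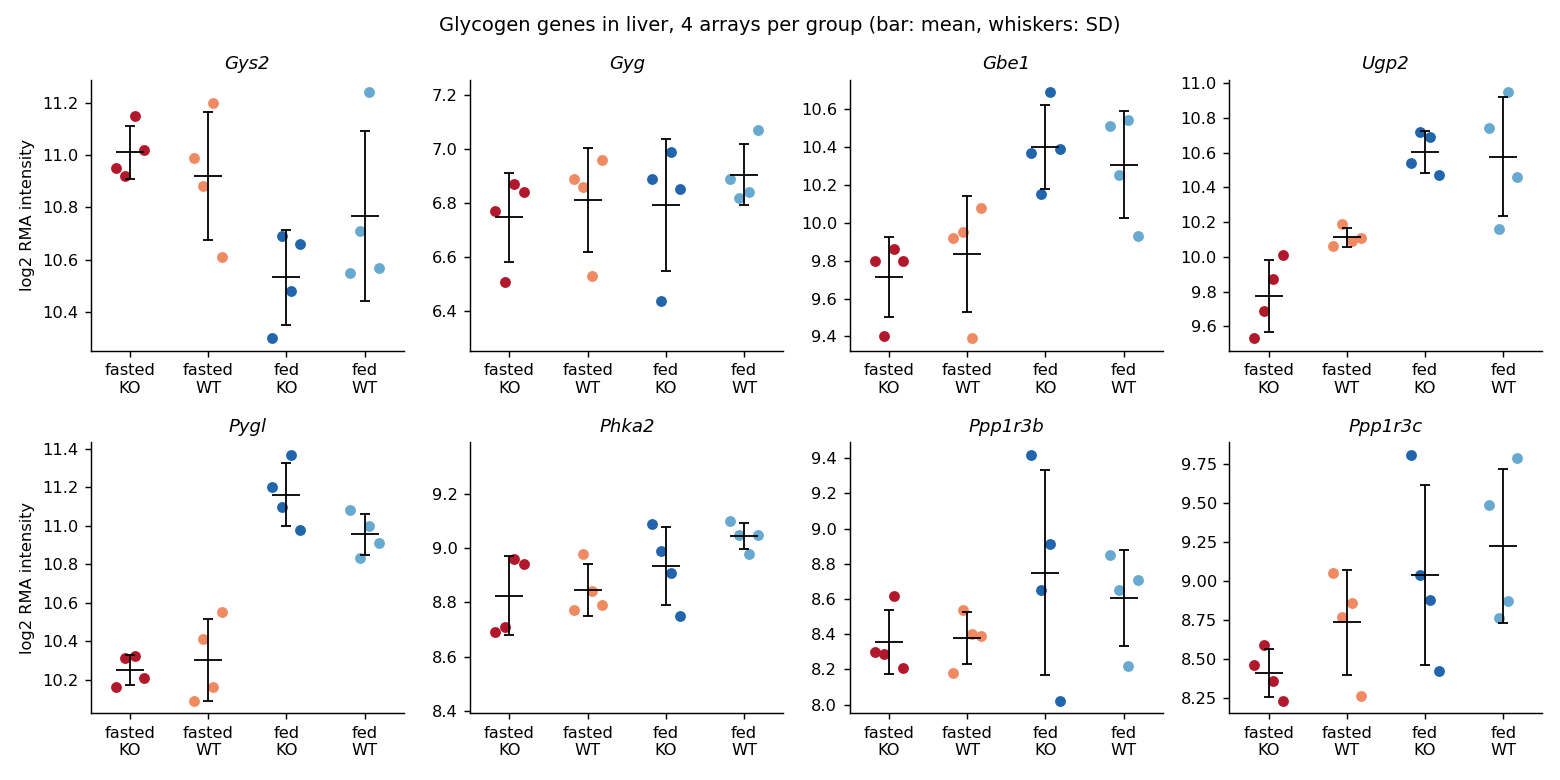
Level of each of the 8 glycogen genes on all 16 arrays, as log2 RMA intensity on the vertical axis, with fasted knockout, fasted wild type, fed knockout and fed wild type livers from left to right. Points are arrays, horizontal bars group means and whiskers the SD. Pygl separates fasted from fed arrays in both genotypes, while the arrays of Gyg overlap in all groups.

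Pygl, the enzyme that releases glucose phosphate from glycogen, had the largest fasting response of the 8 in both genotypes. It read 10.16, 10.31, 10.32 and 10.21 in fasted knockout livers, against 11.20, 11.10, 11.37 and 10.98 in fed knockout livers. In wild type livers it read 10.09, 10.41, 10.16 and 10.55 when fasted, against 11.08, 10.83, 11.00 and 10.91 when fed. All fasted arrays of a genotype lay below all of its fed arrays. The log2 difference, fasted minus fed, was -0.91 (SE 0.11, adjusted p = 4.14e-05), 1.88-fold lower, in knockout livers, and -0.65 (SE 0.11, adjusted p = 0.00129), 1.57-fold lower, in wild type livers. The call held in both genotypes under each of the 27 other settings tried, including the loss of any single array. Some of these settings could not move the difference itself. Loss of an array of the other genotype changes only the shared spread, and averaging of probe sets does not alter a gene with 1 probe set.

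Phka2, which carries the regulatory alpha subunit of the kinase acting on Pygl, did not pass in either genotype. It read 8.69 to 8.96 in fasted against 8.75 to 9.09 in fed knockout livers, and 8.77 to 8.98 in fasted against 8.98 to 9.10 in fed wild type livers. Those ranges overlapped in knockout livers and met at 8.98 in wild type livers. The log2 differences were -0.11 (95% interval -0.30 to 0.07, adjusted p = 0.498) and -0.20 (-0.38 to -0.01, adjusted p = 0.196). Falls larger than 0.38 lay outside both 95% intervals.

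Ugp2 supplies the activated glucose for synthesis. It read 9.53, 9.69, 9.87 and 10.01 in fasted knockout livers, against 10.54, 10.72, 10.69 and 10.47 in fed knockout livers. Every fasted knockout array lay below every fed one, and the log2 difference was -0.83 (SE 0.14, adjusted p = 0.000987), 1.78-fold lower. The wild type arrays of Ugp2 read 10.06, 10.19, 10.09 and 10.11 when fasted, against 10.74, 10.16, 10.95 and 10.46 when fed. Here fed WT 2 lay within the range of the fasted arrays, and the log2 difference was -0.46 (SE 0.14) with an adjusted p of 0.0504. Without fed WT 2 the difference was -0.60 (adjusted p = 0.00842), and it also passed without fasted KO 1 (adjusted p = 0.0471) or fasted KO 4 (adjusted p = 0.0496). In the other 13 of the 16 fits that left out 1 array it did not pass, with an adjusted p of up to 0.146. The smallest fall, -0.34, came without fed WT 3.

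Gbe1, which adds the branch points that make glycogen soluble, had lower means on fasted arrays in both genotypes. It read 9.80, 9.40, 9.86 and 9.80 in fasted knockout livers, against 10.37, 10.15, 10.69 and 10.39 in fed knockout livers. The groups did not overlap, and the log2 difference was -0.68 (SE 0.17, adjusted p = 0.0136), 1.60-fold lower. Without fed KO 3 it was -0.58 (adjusted p = 0.0544). The wild type arrays of Gbe1 read 9.92, 9.95, 9.39 and 10.08 when fasted, against 10.51, 10.25, 10.54 and 9.93 when fed. The low fed array, fed WT 4, lay within the fasted range, and the log2 difference of -0.47 (SE 0.17, adjusted p = 0.0959) did not pass. Without fed WT 4 it was -0.60 (adjusted p = 0.0406). In the other 15 of the 16 fits that left out 1 array it did not pass, with an adjusted p of up to 0.262. The smallest fall, -0.33, came without fasted WT 3.

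Gys2, the chain-lengthening enzyme and the rate-controlling step of synthesis, moved the other way. It read 10.95, 10.92, 11.15 and 11.02 in fasted knockout livers, against 10.30, 10.69, 10.48 and 10.66 in fed knockout livers. The arrays did not overlap, and the log2 difference was 0.48 (SE 0.15, adjusted p = 0.0497), 1.39-fold higher, just inside the threshold. The call was lost in 11 of the 16 fits that left out 1 array, where the difference stayed between 0.40 and 0.53 and the adjusted p reached 0.145 without fed KO 1. Those arrays were fasted KO 1 to 4, fed KO 1 to 4, fasted WT 1, fasted WT 2 and fed WT 2. In wild type livers Gys2 read 10.99, 10.88, 11.20 and 10.61 when fasted, against 10.55, 10.71, 11.24 and 10.57 when fed. These overlapped, with the highest array in the fed group, and the log2 difference was 0.15 (95% interval -0.16 to 0.46, adjusted p = 0.627).

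Gyg, the primer, showed no difference that passed. It read 6.51 to 6.87 in fasted against 6.44 to 6.99 in fed knockout livers, and 6.53 to 6.96 in fasted against 6.82 to 7.07 in fed wild type livers. All 4 ranges overlapped. The log2 differences were -0.04 (95% interval -0.30 to 0.22) in knockout and -0.10 (-0.36 to 0.16) in wild type livers, with adjusted p of 0.891 and 0.720.

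The 2 targeting subunits of protein phosphatase 1 varied widely among fed arrays. Ppp1r3b read 8.30, 8.29, 8.62 and 8.21 in fasted knockout livers, against 9.42, 8.65, 8.91 and 8.02 in fed knockout livers. Its fed knockout arrays spanned 1.41 log2 units, with fed KO 4 below all fasted ones. The log2 difference was -0.40 (SE 0.21, adjusted p = 0.292), and without fed KO 4 it was -0.64 (adjusted p = 0.0290). Without fed KO 1, the highest array, it was -0.17 (adjusted p = 0.662). The wild type arrays of Ppp1r3b read 8.18, 8.54, 8.40 and 8.39 when fasted, against 8.85, 8.65, 8.22 and 8.71 when fed. One fed array, fed WT 3, lay within the fasted range, and the log2 difference of -0.23 (adjusted p = 0.595) did not pass.

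Ppp1r3c read 8.46, 8.59, 8.36 and 8.23 in fasted knockout livers, against 9.81, 9.04, 8.88 and 8.42 in fed knockout livers. Only fed KO 4 lay within the fasted range, and the log2 difference was -0.63 (SE 0.26, adjusted p = 0.154). Without fasted WT 4 and fed KO 4, the arrays that stood apart, it was -0.83 (adjusted p = 0.0418), and the same fit gave -0.64 (adjusted p = 0.0337) for Ppp1r3b. Without fed KO 1 the difference of Ppp1r3c was -0.37 (adjusted p = 0.410). In wild type livers Ppp1r3c read 9.05, 8.77, 8.86 and 8.26 when fasted, against 9.49, 8.76, 8.87 and 9.79 when fed. Those groups overlapped, and the log2 difference was -0.49 (SE 0.26, adjusted p = 0.294).

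**Figure D2:**
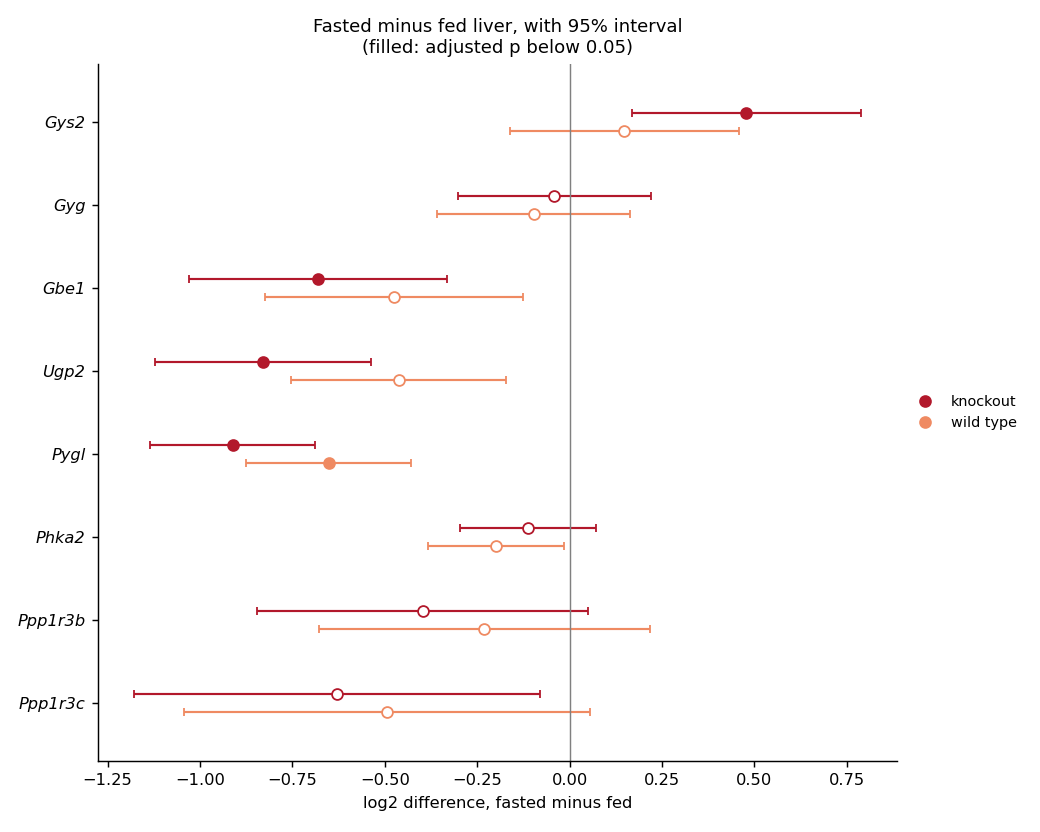
Log2 difference, fasted minus fed, of each gene (horizontal axis), in knockout livers (dark red, upper of each pair) and wild type livers (orange, lower), with 95% intervals. Filled points passed the test. Gys2 lies right of 0 in both genotypes and the other 7 genes lie left of it, with Pygl filled in both.

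Averaging the fasting difference over both genotypes, a contrast added after the values were seen, called 5 of the 8 genes, where 18.3% of all genes were called. Of the 5, 4 fell, as 9.88% of all genes did, and 1 rose, as 8.4% did. Pygl fell by 0.78 (SE 0.07, adjusted p = 2.17e-06), Ugp2 fell by 0.65 (SE 0.10, adjusted p = 0.000183) and Gbe1 fell by 0.58 (SE 0.12, adjusted p = 0.00208). These 3 calls held under all 26 other settings. Ppp1r3c fell by 0.56 (SE 0.18, adjusted p = 0.0421) and Gys2 rose by 0.31 (SE 0.10, adjusted p = 0.0447), and each of these calls held under 13 of 26. Of the other 3 genes, Phka2 was at -0.16 (adjusted p = 0.0940), Ppp1r3b at -0.31 (adjusted p = 0.169) and Gyg at -0.07 (adjusted p = 0.647). Without fed KO 4, Phka2 was at -0.19 (adjusted p = 0.0376) and Ppp1r3b at -0.44 (adjusted p = 0.0156), and without fasted WT 4 and fed KO 4 Ppp1r3b was at -0.44 (adjusted p = 0.0253). Neither passed without any other single array, with an adjusted p of up to 0.182 for Phka2 and 0.315 for Ppp1r3b. Among single arrays left out, the call of Ppp1r3c held without fasted WT 1, fasted KO 2, fed WT 2, fed WT 3 or fed KO 4 and was lost without any other, with an adjusted p of up to 0.0872. That of Gys2 held without fasted WT 4, fed WT 3, fed KO 2 or fed KO 4 and was lost without any other, with an adjusted p of up to 0.0933.

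Markers of other cell types were read on the same arrays. Of the 7 macrophage markers, 0 passed in knockout and 1 fell in wild type fasting, with a log2 summed level of 11.04 to 11.71 in fasted knockout, 11.23 to 11.71 in fasted wild type, 11.52 to 11.77 in fed knockout and 11.6 to 12.17 in fed wild type livers. Of the 7 stellate cell markers, 2 fell in each genotype, with a log2 summed level of 12.05 to 12.29 in fasted knockout, 12.16 to 12.33 in fasted wild type, 12.12 to 12.26 in fed knockout and 12.09 to 12.27 in fed wild type livers. Averaged over genotypes, 3 of the 7 macrophage and 4 of the 7 stellate cell markers fell, with median log2 differences of -0.38 and -0.39. Of all genes, 4.89% fell in knockout fasting, 4.27% in wild type fasting and 9.88% in the averaged contrast. Among the 6 endothelial and the 4 measured bile duct markers, 0 passed in any of these contrasts. Of the 6 measured hepatocyte markers, 2 rose in wild type and 0 passed in knockout fasting. Averaged over genotypes, 1 of these 6 rose and 1 fell. Of all genes, 7.61% passed in wild type fasting, 9.42% in knockout fasting and 18.3% in the averaged contrast. The part of these cell types in the fasting differences was not tested.

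The stretches upstream of Pygl, Gbe1, Ugp2 and Ppp1r3c are shown because these are the genes that fell in the fasting contrast averaged over genotypes. RefSeq start sites (GRCm38.p6) were available here for 6 of the 8 genes and gave 7 windows, since Ugp2 has 2 starts. The sequences below are the 250 bases before each start, 5′ to 3′ on the gene's strand, in lower case. Capitals mark the E-box CACGTG, the core letters bound by helix-loop-helix factors, and TGACG, the core of the cyclic AMP response element (CRE) bound by CREB, on either strand.
Pygl, chr12:70227684-70227933, minus strand: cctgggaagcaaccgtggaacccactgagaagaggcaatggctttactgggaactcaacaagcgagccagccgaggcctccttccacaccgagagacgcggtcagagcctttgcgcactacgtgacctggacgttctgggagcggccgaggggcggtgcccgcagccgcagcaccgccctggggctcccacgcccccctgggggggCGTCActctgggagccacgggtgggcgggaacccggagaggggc
Gbe1, chr16:70313699-70313948, plus strand: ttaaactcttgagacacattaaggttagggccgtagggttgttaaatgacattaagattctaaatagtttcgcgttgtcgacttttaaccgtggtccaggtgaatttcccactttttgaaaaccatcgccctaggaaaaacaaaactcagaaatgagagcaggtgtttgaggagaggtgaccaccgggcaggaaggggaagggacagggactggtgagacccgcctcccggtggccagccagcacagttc
Ugp2, downstream start, chr11:21370630-21370879, minus strand: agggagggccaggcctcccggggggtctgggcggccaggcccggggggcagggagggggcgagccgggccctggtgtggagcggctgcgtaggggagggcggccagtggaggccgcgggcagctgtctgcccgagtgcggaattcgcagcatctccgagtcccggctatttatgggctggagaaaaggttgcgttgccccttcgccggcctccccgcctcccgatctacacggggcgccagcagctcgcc
Ugp2, upstream start, chr11:21371268-21371517, minus strand: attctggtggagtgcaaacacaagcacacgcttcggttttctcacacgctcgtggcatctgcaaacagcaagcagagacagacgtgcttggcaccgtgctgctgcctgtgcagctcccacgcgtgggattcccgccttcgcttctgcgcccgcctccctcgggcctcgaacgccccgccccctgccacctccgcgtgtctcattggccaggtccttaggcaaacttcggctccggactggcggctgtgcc
Ppp1r3c, chr19:36736605-36736854, minus strand: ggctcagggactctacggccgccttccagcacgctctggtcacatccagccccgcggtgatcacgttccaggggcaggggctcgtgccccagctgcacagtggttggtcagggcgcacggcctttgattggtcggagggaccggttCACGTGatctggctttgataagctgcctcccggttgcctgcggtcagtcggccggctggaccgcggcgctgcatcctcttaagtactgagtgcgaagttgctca
The motifs were searched on both strands in the 250 bases before and 50 bases after each start. Positions are counted from 0 at the start, negative before it, and give a motif's first base in the printed direction. Pygl held the CRE core on the opposite strand at position -44, and Ppp1r3c the E-box at position -104. Gbe1 and both Ugp2 windows held neither motif. Among the genes not printed, Gyg held both motifs, overlapping, after its start, and Phka2 held neither. The full CRE (TGACGTCA), a FOXO core (TGTTTAC) and a TATA box (TATAAA) were in 0 of the 7 windows. Of 32851 RefSeq windows of the same length, 20.8% held the CRE core, 7.2% the E-box, 1.8% the full CRE, 3.6% the FOXO core and 13.6% the TATA box. The GC box GGGCGG, in 35.7% of those windows, was in all member windows but that of Ppp1r3c, with 4 matches in Pygl, and CCAAT, in 37.4%, occurred 2 times each in Ppp1r3c and at the upstream start of Ugp2. Such matches describe letters and do not show binding.

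The next comparison asked whether loss of vanin-1 went with a different level of the glycogen genes. In fasted livers, knockout against wild type, 0 of the 8 genes passed (limma, smallest adjusted p = 0.867), where 0.0159% of all genes did. An unadjusted p under 0.05 was found for 1033 of all 18820 genes, and for 1 of the 8. That gene was Ugp2, at 9.78 ± 0.21 in fasted knockout and 10.11 ± 0.06 in fasted wild type livers (SD, n = 4 each). Its knockout arrays all lay below its wild type arrays, and 3.15% of all genes showed no overlap in one direction or the other. The log2 difference was -0.34 (SE 0.14, 95% interval -0.63 to -0.05, unadjusted p = 0.0253). Ppp1r3c was at -0.32 with a wide interval, -0.87 to 0.22, and its groups overlapped. The other 6 differences lay between -0.12 for Gbe1 and 0.09 for Gys2.

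In fed livers, knockout against wild type, 0 of the 8 passed (smallest adjusted p = 0.859), where 0.00531% of all genes did. An unadjusted p under 0.05 was found for 1084 of all 18820 genes, and for 0 of the 8. Pygl came closest, at 11.16 ± 0.17 in fed knockout and 10.96 ± 0.11 in fed wild type livers, with a log2 difference of 0.21 (95% interval -0.02 to 0.43). Gys2 was at -0.24 (-0.55 to 0.07). The intervals ran from -0.31 to 0.59 for Ppp1r3b and from -0.74 to 0.36 for Ppp1r3c, so small differences of the targeting subunits were not detectable with these arrays.

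**Figure D3:**
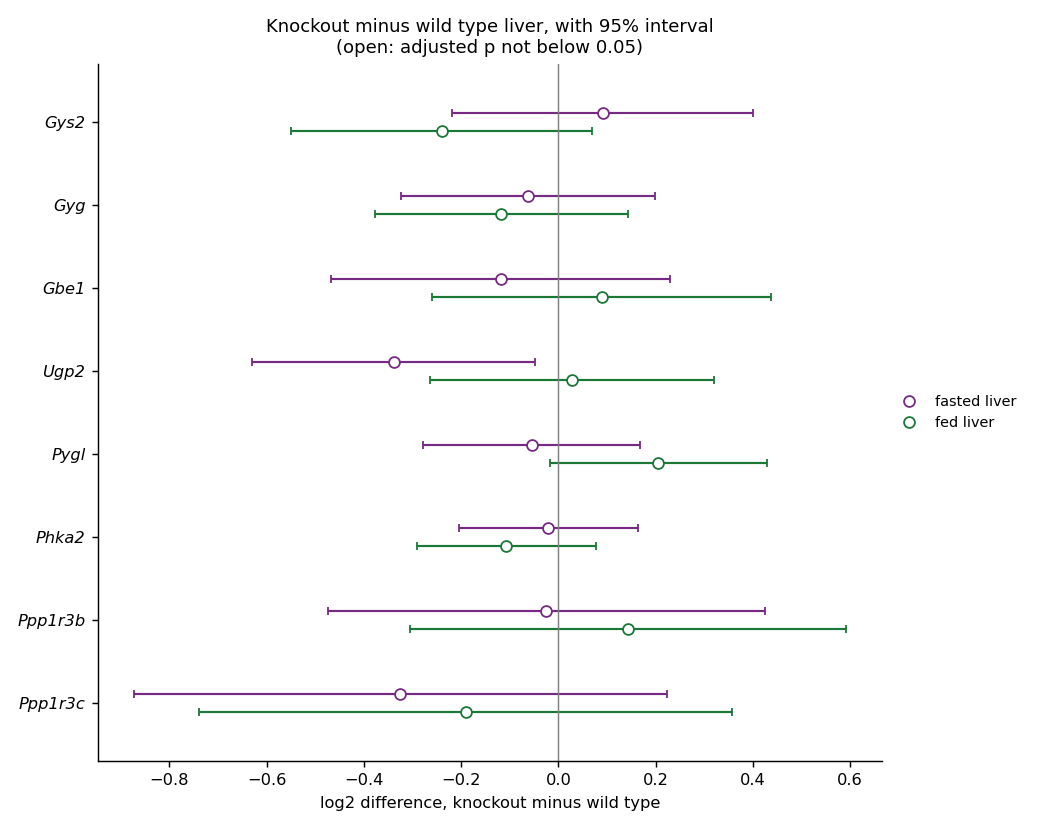
Log2 difference, knockout minus wild type, of each gene (horizontal axis), in fasted livers (purple, upper of each pair) and fed livers (green, lower), with 95% intervals. All points are open because 0 of 8 passed in either state, and the only interval that excludes 0 is that of Ugp2 in fasted livers.

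The fasting response of knockout livers was then set against that of wild type livers in the same fit. The test of this difference called 0 of the 8 genes (limma, smallest adjusted p = 0.948) and 0 of 18820 genes in all, a background of 0%, while 924 of all genes and 0 of the 8 had an unadjusted p under 0.05. For Ugp2 the response was -0.83 in knockout and -0.46 in wild type livers, a difference of -0.37 (95% interval -0.78 to 0.05). For Gys2 it was 0.48 and 0.15, a difference of 0.33 (-0.11 to 0.77), and for Pygl -0.91 and -0.65, a difference of -0.26 (-0.58 to 0.05). Without fed WT 3, its highest fed wild type array, Gys2 differed by 0.17 between the responses and by -0.08 between fed knockout and fed wild type livers. These were the ends nearest 0, as leaving out other single arrays gave up to 0.42 and down to -0.31. The counts of 4 genes called in knockout and 1 in wild type livers are therefore not shown to differ between genotypes.

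The order of the group means followed feeding state for the enzymes that fell, which their choice as genes that fell largely fixes. Pygl ran from 11.16 in fed knockout through 10.96 in fed wild type and 10.31 in fasted wild type to 10.25 in fasted knockout livers. Of these steps, the first 2 exceeded the larger SD of the neighbouring groups and the last did not. Gbe1 had the same order (10.40, 10.31, 9.83 and 9.72), and only the step between fed and fasted wild type exceeded the SD. Ugp2 also had that order, and all its steps exceeded the SD except that between the fed groups. Gys2 ran the opposite way by feeding state, with 11.01 in fasted knockout, 10.92 in fasted wild type, 10.77 in fed wild type and 10.53 in fed knockout livers, and no step between neighbours exceeded the SD. For Gyg, Phka2, Ppp1r3b and Ppp1r3c no step did either. Ppp1r3b nevertheless had the same order as Pygl (8.75, 8.61, 8.38 and 8.35). Phka2 and Ppp1r3c also had both fed means above both fasted means, and Gyg did not.

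Arrays were also ranked within their group for each of the 8 genes. The same ranking was not made over all genes, so these counts have no baseline. In the fed knockout group, fed KO 4 was the lowest of its group for 5 of the 8 genes and the highest for 0. Fed WT 2 and fasted WT 1 were each the lowest of their group for 4 of 8, and fasted KO 3 the highest of its group for 6 of 8.

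A list of 33 other genes around glycogen, chosen by function with earlier results of these data known, had 28 measured members. The other 5 were not analysed here. In knockout fasting 3 of 28 rose, 2 fell and 23 did not pass, and in wild type fasting 3 rose, 1 fell and 24 did not pass, where 9.42% of all genes passed in knockout and 7.61% in wild type livers. The list's median log2 difference was 0.06 in knockout (0.02 over all genes) and 0.07 in wild type livers (0.01 over all genes).

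Gaa, the lysosomal acid glucosidase that degrades glycogen delivered to lysosomes, rose in both genotypes. It read 10.26, 10.26, 10.23 and 10.26 in fasted against 9.56, 9.79, 9.59 and 9.29 in fed knockout livers, and 10.36, 10.19, 10.14 and 10.14 in fasted against 9.77, 9.79, 9.69 and 9.76 in fed wild type livers. Fasted and fed arrays did not overlap in either genotype. The log2 difference was 0.69 (SE 0.09, adjusted p = 9.90e-05) in knockout and 0.45 (SE 0.09, adjusted p = 0.00451) in wild type livers. The other 3 measured genes of the breakdown and lysosomal group, Stbd1, Epm2a and Nhlrc1, did not pass.

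Among the glucose phosphate genes, G6pc, the catalytic subunit of glucose 6-phosphatase that frees glucose for export, rose by 0.56 (adjusted p = 0.00807) in knockout and 0.60 (adjusted p = 0.00686) in wild type livers. It read 12.80 to 12.96 in fasted against 12.12 to 12.44 in fed knockout livers, and 12.85 to 13.14 in fasted against 11.93 to 12.62 in fed wild type livers, with no overlap. Slc2a2, the hepatocyte glucose transporter, fell by 0.64 (adjusted p = 0.0176) in knockout and 0.63 (adjusted p = 0.0246) in wild type livers. Its calls were lost, with adjusted p of 0.0501 to 0.0776, without fasted KO 1, fasted KO 2 or fed KO 3 in knockout livers and without fasted WT 2, fasted WT 3, fed WT 1, fed WT 2 or fed WT 3 in wild type livers. Gckr, a regulator of glucose phosphorylation in hepatocytes, fell by 0.40 (adjusted p = 0.0230) in knockout livers and was at -0.35 (adjusted p = 0.0553) in wild type livers. The knockout call was lost, with adjusted p of 0.0525 to 0.0812, without fasted KO 1, fasted KO 3, fed KO 1, fed KO 2 or fed KO 3. The wild type value passed without fasted WT 1 (adjusted p = 0.0449) or fed KO 4 (adjusted p = 0.0133). It did not pass without any other single array, with an adjusted p of up to 0.171. The other 3 measured genes here, Pgm1, Pgm2 and Slc37a4, did not pass.

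Of the 8 phosphatase subunits on that list, 1 rose in each genotype. Ppp1r3g, another glycogen-targeting subunit, read 6.72, 7.49, 7.63 and 6.90 in fasted against 5.56, 5.55, 5.06 and 6.59 in fed knockout livers, and 6.95, 6.33, 8.35 and 5.75 in fasted against 5.35, 6.54, 5.50 and 5.45 in fed wild type livers. The knockout groups did not overlap and the wild type groups did. The log2 difference was 1.49 (SE 0.44, adjusted p = 0.0432), 2.82-fold higher, in knockout and 1.13 (SE 0.44, adjusted p = 0.144) in wild type livers. The knockout call was lost without any 1 of fasted KO 1 to 4, fed KO 1 to 3, fasted WT 1 or fed WT 3, with adjusted p of 0.0509 to 0.134 and differences of 1.29 to 1.65. Ppp1cc, a catalytic subunit of the phosphatase, rose by 0.34 (adjusted p = 0.0270) in wild type livers, a call lost without fasted WT 2, 3 or 4 or fed WT 2 or 4 (adjusted p of 0.0550 to 0.0980), and was at 0.06 (adjusted p = 0.773) in knockout livers. Without fasted WT 4 and fed KO 4, the wild type values were 1.498 (adjusted p = 0.0394) for Ppp1r3g, 0.28 (adjusted p = 0.0750) for Ppp1cc and -0.29 (adjusted p = 0.0489) for Gckr. Without fasted WT 4 alone the value of Ppp1r3g did not pass (adjusted p = 0.0579), and without fasted WT 3, its highest array, it was 0.63 (adjusted p = 0.374).

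In the fasting contrast averaged over genotypes, 4 of the 28 rose, 3 fell and 21 did not pass, where 18.3% of all genes passed. Gaa rose by 0.57 (adjusted p = 7.51e-06), G6pc by 0.58 (adjusted p = 0.000192) and Ppp1r3g by 1.31 (adjusted p = 0.00713), while Slc2a2 fell by 0.63 (adjusted p = 0.000851) and Gckr fell by 0.37 (adjusted p = 0.00192). These 5 calls held under all 26 other settings. Ppp1cc rose by 0.20 (adjusted p = 0.0368), a call that among single arrays left out held without fasted WT 1, fasted KO 3, fed WT 1, fed WT 3 or fed KO 4 and was lost without any other, with an adjusted p of up to 0.0782. Phkb, the beta subunit of phosphorylase kinase, fell by 0.19 (adjusted p = 0.0389), a call that held under 11 of 26 other settings. Among single arrays left out it held without fasted WT 4, fasted KO 1, fasted KO 3, fed WT 4 or fed KO 3 and was lost without any other, with an adjusted p of up to 0.0775, and with median centring it was at -0.14 (adjusted p = 0.170).

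Isoforms typical of other tissues (Gys1, Pygb and Pygm), the other 3 measured phosphorylase kinase subunits, and the 4 measured kinases and hormone receptors (Gsk3b, Prkacb, Gcgr and Insr) included 0 genes that passed in either genotype taken alone (smallest adjusted p = 0.105). In knockout against wild type livers, 0 of the 28 passed when fasted (smallest adjusted p = 0.894) or fed (smallest adjusted p = 0.855), and 0 differed between genotypes in their fasting response (smallest adjusted p = 0.948).

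**Figure D4:**
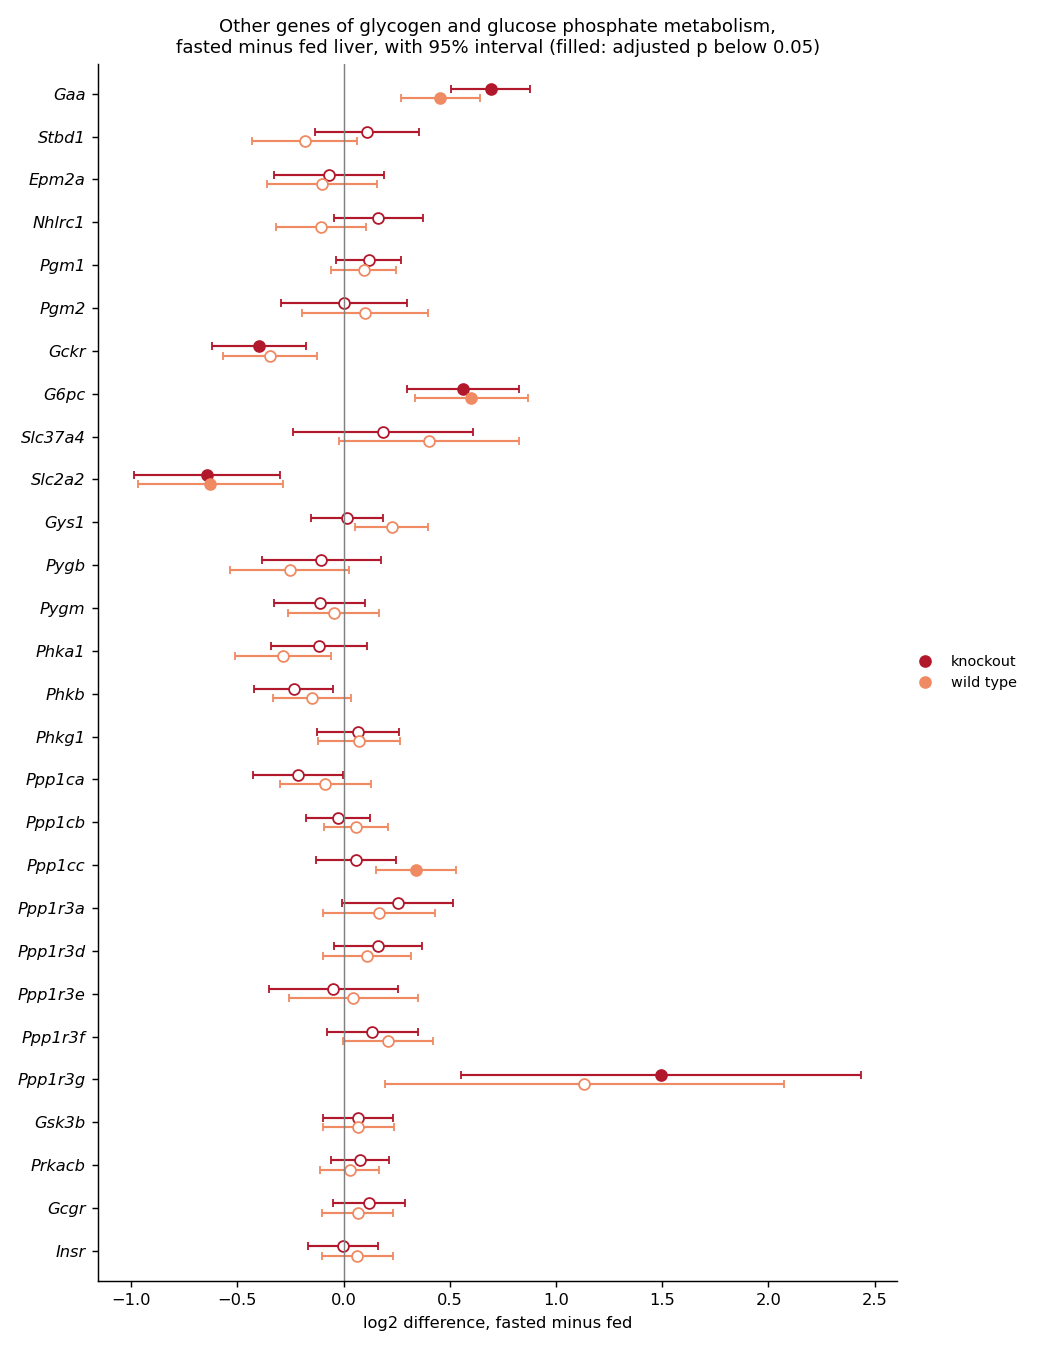
Log2 difference, fasted minus fed (horizontal axis), of the 28 measured genes around glycogen metabolism, in knockout livers (dark red, upper of each pair) and wild type livers (orange, lower), with 95% intervals. Filled points passed the test. Gaa, G6pc and Slc2a2 are filled in both genotypes, and Ppp1r3g has the widest intervals.

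For each of the 4 called enzymes, the genes with the most similar pattern over the 16 arrays were found. Likeness was the root mean square difference of centred log2 values, where a smaller value is more alike. Genes with predicted, Riken, LOC or accession-like names were skipped. For Pygl, whose own values spread by 0.419 around their mean, these were Fdx1 (0.124), Ormdl1 (0.139) and Ces2g (0.141). For Ugp2, with a spread of 0.391, they were Gsta3 (0.154), Enpp5 (0.169) and Car8 (0.174). Gbe1, with a spread of 0.370, was nearest to Slc2a2 (0.162), Gsta3 (0.175) and Zfp938 (0.181). Gys2, with a spread of 0.267, was nearest to Rassf2 (0.158), Hykk (0.160) and Nadk (0.172). Slc2a2 was thus on the functional list and also nearest to Gbe1, and Gsta3 was near both Gbe1 and Ugp2.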

How the data were processed

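Liver RNA of 16 samples, 4 groups of 4, was read on whole-transcript arrays labelled with biotin. Per the submitters' processing notes the authors made the log2 intensities with RMA, of a version not given in the sources used here. Of 35556 probe sets, 21218 carried 1 gene symbol, 1881 several, and 12457 were not in the probe table. The single-symbol probe sets gave 18820 genes, each read by its probe set with the highest mean. The 16 arrays were fitted in limma 3.58.1 (R 4.3.3) with a mean per group (12 residual and 4.66 prior degrees of freedom), two-sided tests and Benjamini-Hochberg adjustment over all genes. No gene was filtered for low level. The procedure was tested on simulated data. Named genes were all 8 members, called genes of the list around glycogen, and the 3 genes nearest to each called member. Predicted, Riken, LOC and accession-like names were skipped among the nearest genes. List genes that did not pass are named only as such. Ctrb1, Saa2, Lcn2 and the averaged contrasts were chosen after their values were seen. The members and lists were chosen with earlier results of these data known. Promoter windows came from RefSeq (GRCm38.p6), and probe genes from the platform table.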

Additional observations from a re-analysis of the deposited data

Results flagged for a closer look

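Of 32 sets of 4 arrays (8 genes in 4 groups), 1 held an array far from the other 3 by Dixon's test. Gbe1 read 9.4 on fasted KO 2 and 9.8 to 9.86 on the other fasted knockout arrays, a gap of 0.869 of the group's range, above the 95% critical value. Chance flags about 1 in 20 groups. Without this array the fasting difference of Gbe1 in knockout livers was -0.57 and still passed.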

How the results depend on the processing

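Precision is limited by 4 arrays a group. Besides leaving out each array, 11 alternatives were run: median centring, quantile normalisation, a filter on genes below the 30th percentile, averaging of probe sets, array weights, a robust prior, blocks for replicate number and plate column, fitting only the groups compared, and fits without the 3 arrays whose name ends in 2 (fasted KO 1, fed WT 2 and fed KO 4) or without fasted WT 4 and fed KO 4. The last, and the averaged contrasts, were added after the data were examined. Fits on only the groups compared give no value for the interaction and averaged contrasts. Causes of the changes below were not tested.

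Wild type fasting called 2 of the 8 genes in place of 1 under quantile normalisation, the filter, the robust prior, array weights and without the arrays ending in 2, and 1 to 2 when single arrays were left out. Knockout fasting called 2 in place of 4 without the arrays ending in 2, and 2 to 4 when single arrays were left out, with 2 without fed KO 3. The averaged fasting contrast called 3 to 7 when single arrays were left out, in place of 5. The list of 28 genes gave 2 to 5 calls when single arrays were left out in wild type fasting (4 with all arrays) and 2 to 5 in knockout fasting (5 with all arrays). Genotype and interaction contrasts called 0 of the 8 and 0 of the 28 under every alternative run. Over all genes, the knockout fasting count was 964 without the arrays ending in 2 (1772 with all), and the wild type count 829 with only the groups compared (1432 in the common fit). Averaged over genotypes, 1580 genes rose and 1860 fell, and 2426 and 1397 with median centring.

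Gys2 lost its knockout fasting call under the plate column block (adjusted p = 0.0531) and without the arrays ending in 2 (adjusted p = 0.116), as did Gbe1 in the latter fit (adjusted p = 0.0688). Without those arrays Slc2a2 lost its call in knockout (adjusted p = 0.0620) and wild type fasting (adjusted p = 0.0611), and Ppp1cc in wild type fasting (adjusted p = 0.0694). Ugp2 (adjusted p = 0.00691) and Gckr (adjusted p = 0.0150) passed in wild type fasting in that fit. Under array weights Ppp1r3c passed in knockout fasting (adjusted p = 0.0343). Ppp1r3g lost its knockout call under the robust prior (adjusted p = 0.0873) and the plate column block (adjusted p = 0.0525), and Ppp1cc its wild type call with only the groups compared (adjusted p = 0.0890).

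Same-numbered arrays did not deviate together: of 24 pairs, 4 correlated above 0.1, with r of -0.22 to 0.21. With the replicate block, 1 of the 8 genes was called in wild type fasting, 4 in knockout fasting and 1324 and 1658 genes in all. The block ended the knockout call of Ppp1r3g (adjusted p = 0.0634).

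Signs turned only for differences that had not passed. Knockout against wild type in fasted livers, Phka2 gave 0.0234 without the arrays ending in 2, and Gys2 -0.01314 and Pygl 0.02693 without fasted WT 4 and fed KO 4. In fed livers, Ugp2 gave -0.008174 under array weights and -0.06658 without the arrays ending in 2, and Ppp1r3c 0.01443 without fasted WT 4 and fed KO 4. In knockout fasting Gyg gave 0.003213 under quantile normalisation and 0.003297 under array weights. In the averaged genotype contrast Gbe1 gave 0.02767 without fasted WT 4 and fed KO 4.

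Leaving out single arrays turned further signs, over these log2 ranges. Between fasted genotypes Gys2 ran from -0.01314 to 0.1835, Gyg from -0.1567 to 0.0173, Pygl from -0.1258 to 0.02693, Phka2 from -0.06436 to 0.02495 and Ppp1r3b from -0.1124 to 0.0296. Between fed genotypes Gyg ran from -0.1848 to 0.0006864, Gbe1 from -0.03892 to 0.1723, Ugp2 from -0.1115 to 0.1526, Ppp1r3b from -0.08121 to 0.3878 and Ppp1r3c from -0.4482 to 0.01443. In knockout fasting Gyg ran from -0.1594 to 0.03813. For the difference of responses Gyg ran from -0.06285 to 0.1347, Ppp1r3b from -0.4126 to 0.05649 and Ppp1r3c from -0.3394 to 0.1232. In the averaged genotype contrast Gys2 ran from -0.1266 to 0.004278, Gbe1 from -0.08892 to 0.03849 and Ppp1r3b from -0.05297 to 0.1816.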
